A study of Mus musculus with 12 samples.

Results

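Cytochrome P450 enzymes are heme proteins that insert an oxygen atom into small molecules, using electrons from a reductase partner. In the gut wall they oxidize drugs, diet-derived compounds and fatty acids, and they make or break down steroids, bile acids, vitamin D and retinoic acid. Many of their genes are switched by receptors that sense these same ligands, such as the aryl hydrocarbon receptor, the vitamin D receptor and the retinoic acid receptors. The members described here are the genes on the array whose symbol is Cyp followed by a number, letters and a number, and they were 91 of 37074 named genes.

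Expression was measured in the cecum of C57BL/6 mice in 4 groups of 3 arrays. The groups were a sham control, and cecum burned on its surface with bipolar forceps and taken 3 h later, 12 h later or 72 h later, an injury that leads to peritoneal adhesions. The groups shared the strain, with no transgene or deletion named, and the age of the mice and the time of the sham sample were not in the labels. The study's methods put the sham sample at 0 h, so no sham was matched in time to the later groups. Effects of the operation itself or of elapsed time thus cannot be told apart from those of the injury. Whether each array came from a separate mouse was not in the labels either, and the study calls the samples biological triplicates. If they are not, p-values measure only technical spread. The labels give all mice as male, yet Xist was well above background on every array, as was Kdm5d among the Y-linked genes, with Uty on 1 array and neither Ddx3y nor Eif2s3y on any (0 of 12).

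Each level below is a log2 intensity relative to the 75th percentile of the same array, so 0 is that percentile. A gene was read by its brightest probe, and a change was called at a fold change above 2 with a Benjamini-Hochberg adjusted p below 0.05 in limma. Well above background is the scanner software's own flag. By that flag, 49 of the 91 members were measured on all 12 arrays, 16 on some arrays and 26 on none. The 26 included the liver enzymes Cyp7a1, Cyp8b1 and Cyp1a2, the adrenal enzymes Cyp11b1 and Cyp11b2, and Cyp19a1, which makes estrogen. The 16 markers of intestinal epithelium were well above background on every array, among them Vil1, Cdx2 and Lgals4. Arrays of 1 group correlated at 0.985 to 0.992. Sham control, 3 h and 12 h replicates 1 and 2 were on 1 slide, and 12 h replicate 3 and all 72 h arrays on another, so that only 12 h joined the slides.

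Because the results turn on a pair of Cyp1 genes and on a tandem group of Cyp2c genes, the bases just before their start sites are shown, from RefSeq (GRCm38.p6). Of the 91 members, 70 matched the promoter table, with 80 promoters. The first set is the 80 bases before the start of each Cyp1 gene, 5′ to 3′ along the gene, with GCGTG, the core that the aryl hydrocarbon receptor and its partner ARNT bind, and TATAAA in capitals on either strand.
Cyp1a1, chr9:57697533-57697612, plus strand: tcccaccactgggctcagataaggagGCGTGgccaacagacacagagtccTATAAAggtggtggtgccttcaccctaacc
Cyp1a2, chr9:57683656-57683735, minus strand: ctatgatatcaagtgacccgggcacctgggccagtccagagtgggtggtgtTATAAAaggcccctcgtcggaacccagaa
Cyp1b1, chr17:79715062-79715141, minus strand: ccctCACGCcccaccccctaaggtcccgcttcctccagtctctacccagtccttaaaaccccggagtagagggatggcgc

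GCGTG lay 54 bases before the start of Cyp1a1 and, on the opposite strand, 76 bases before that of Cyp1b1. Over the 250 bases before the start, both strands searched, GCGTG was found in 28.2% of all 32851 promoters and in 15 of the 80 member promoters (18.8%). TATAAA was found in 12.4% of all promoters and in 26 of 80 (32.5%). AGGTCA, a motif of nuclear receptors, was found in 14.0% of all and in 19 of 80 (23.8%), and AGTTCA, a variant found in vitamin D response elements, in 11.8% of all and in 11 of 80 (13.8%). No matches of different motifs overlapped in the member promoters. A match describes the letters and is no measure of binding.

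The second set is the 80 bases before the start of 4 Cyp2c genes, shown because they form pairs alike in sequence.
Cyp2c65, chr19:39060926-39061005, plus strand: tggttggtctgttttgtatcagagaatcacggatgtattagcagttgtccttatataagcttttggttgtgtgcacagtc
Cyp2c66, chr19:39113818-39113897, plus strand: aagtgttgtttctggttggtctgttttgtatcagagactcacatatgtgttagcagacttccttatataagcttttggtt
Cyp2c68, chr19:39741102-39741181, minus strand: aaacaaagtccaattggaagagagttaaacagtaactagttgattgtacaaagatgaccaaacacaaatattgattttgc
Cyp2c69, chr19:39886770-39886849, minus strand: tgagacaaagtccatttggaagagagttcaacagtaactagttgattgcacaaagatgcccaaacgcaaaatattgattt

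Without gaps, Cyp2c65 and Cyp2c66 were identical at 61 of 68 aligned bases, and Cyp2c68 and Cyp2c69 at 66 of 78. Larger shifts were not searched, so genes outside these pairs can share the same sequence further displaced. The 80 bases of Cyp2c40 end with the sequence that begins those of Cyp2c69. Those of Cyp2c67 begin with nearly the sequence that ends those of Cyp2c69. The values of each pair are given with the Cyp2c genes.

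At 3 h, 2 members were called higher than in sham control and 4 were called lower, beside 3.26% and 4.11% of all 37074 genes. At 12 h the members called higher again numbered 2 and those called lower 16, beside 4.1% and 4.96% of all genes. At 72 h there were 4 higher members and 14 lower members, beside 4.55% and 4.3% of all genes. The share of members called lower was thus close to the background at 3 h (4.40%) and above it at 12 h (17.6%) and 72 h (15.4%). The members had median log2 differences of 0.06, -0.17 and -0.44 at these times, beside 0.08, -0.01 and -0.14 over all genes. The comparisons share their sham arrays. Of the members, 30 were called in at least 1 comparison with sham control, beside 16.6% of all genes, and Cyp1a1, Cyp24a1, Cyp26b1 and Cyp4f18 in all 3. Across the 4 groups, limma's F-test passed for 44 of the 91 members, beside 39.3% of all genes.

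**Figure D1:**
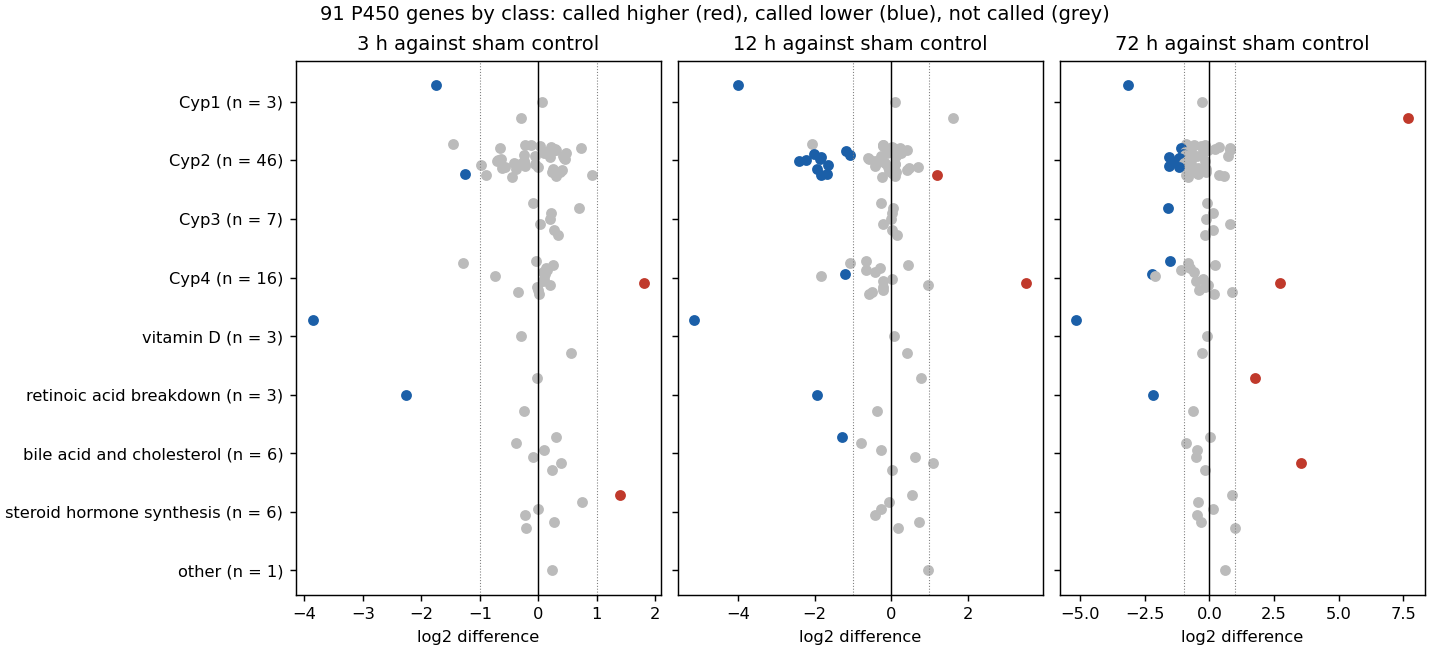
Log2 difference from sham control of the 91 P450 genes (x axis, 1 scale per panel, 1 panel for each time after injury), with the points of each class on a line of their own and dotted lines at a fold change of 2. The blue points to the left, called lower, grow from 4 at 3 h to 16 at 12 h and 14 at 72 h, while the red points number 2, 2 and 4.

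The largest rise of any member was that of Cyp1b1, which oxidizes estradiol, retinoids and polycyclic hydrocarbons and is known from fibroblasts and other stromal cells. Its probe lay at mm9 chr17:80106547-80106606. The levels in sham control were -6.54, -4.97 and -7.11, at 3 h -7.08, -5.48 and -6.95, at 12 h -4.58, -4.98 and -4.20, then at 72 h 2.41, 1.33 and 0.73. The 72 h arrays stood far above all others, and 12 h replicates 1 and 3 were the only earlier arrays on which the gene was well above background. Since it was not so on any sham array, the 72 h level was at least 88.7-fold higher (log2 difference 7.69 ± 0.62 SE, adjusted p = 5.27e-05), or at least 64.5-fold without 72 h replicate 1. Normexp background correction adds an offset of 50 to each intensity, which shrinks the folds of dim genes. With it the difference was 3.42 and still called. Between 12 h and 72 h it rose by 6.08 ± 0.62 (adjusted p = 0.00034). The summed level of 6 fibroblast markers was 160.0 to 172 in sham control, 105.6 to 130.4 at 3 h, 92.0 to 99.3 at 12 h and 420.1 to 940 at 72 h. At 12 h, 4 of the 6 were called lower. Within 72 h the sum was highest on replicate 1 and lowest on replicate 3, as Cyp1b1 was. Macrophage, fat cell and steroid-making cell marker sums had this order too, and epithelial and smooth muscle sums the reverse. In a whole tissue, a change in the number of cells of a type and a change in RNA per cell cannot be told apart.

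Cyp1a1, the classic target of the aryl hydrocarbon receptor, which the gut epithelium uses to clear that receptor's dietary ligands, moved the other way (probe at mm9 chr9:57551535-57551594). Its levels were -2.91, -2.68 and -3.44 in sham control, -4.29, -5.05 and -4.95 at 3 h, -7.38, -6.57 and -7.06 at 12 h, then -6.29, -6.20 and -6.04 at 72 h. The sham arrays lay above every other array, and the gene was well above background on all 3 of them, on 1 array at 3 h and on none later. At 3 h it fell by 1.76 ± 0.27 (adjusted p = 0.00189). At 12 h it was at least 3.90-fold lower (adjusted p = 1.6e-05) and at 72 h at least 4.37-fold lower (adjusted p = 6.94e-05). With normexp correction all 3 differences fell within a fold change of 2, at -0.31, -0.62 and -0.72, and were not called. The offset of 50 shrinks the fold of a gene this dim, so these losses do not show that its level was unchanged. The summed level of epithelial markers was 2661 to 2880 in sham control, 3303 to 3565 at 3 h, 2559 to 3066 at 12 h and 1266 to 1738 at 72 h. The part of cell numbers in the fall of Cyp1a1 was not tested. The third gene of the group, Cyp1a2, which neighbours Cyp1a1 on chromosome 9, was well above background on 0 of 12 arrays.

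Of the genes that act on this family's switches, the receptor Ahr differed from sham control by 0.27, -0.34 and 0.15 at the successive times and its partner Arnt by 0.13, 0.04 and 0.21, none of them called. Ahrr, which encodes the repressor of the receptor and is itself one of its target genes, fell by 1.03, 1.53 and 1.24 on the log2 scale (adjusted p = 0.0036, 0.00032 and 0.0014).

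**Figure D2:**
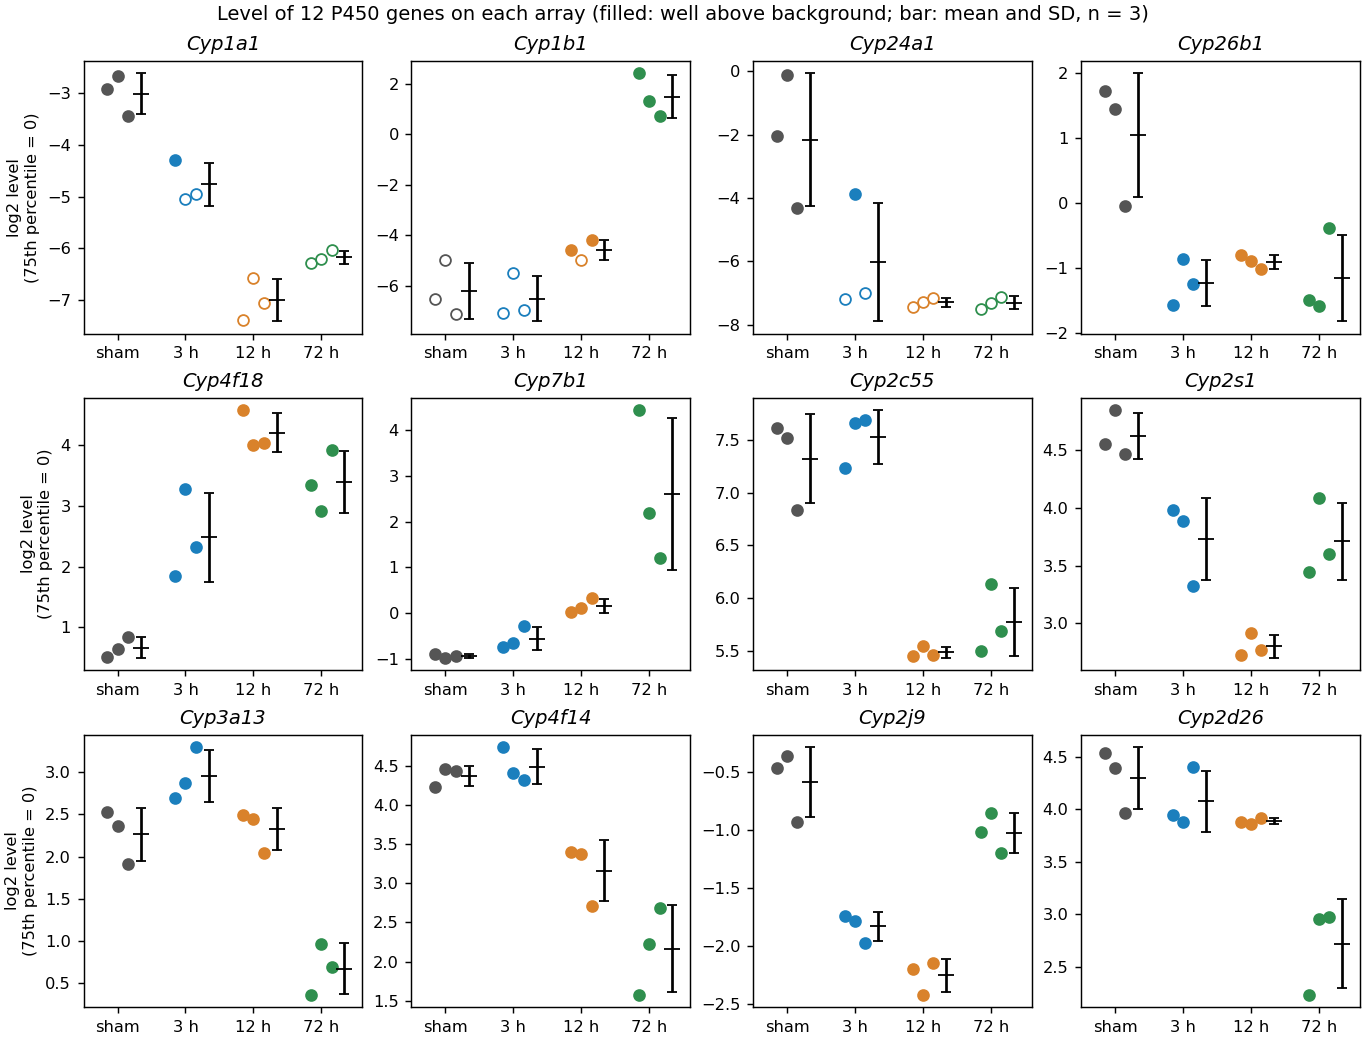
Log2 level of 12 P450 genes on each of the 12 arrays (y axis, 75th percentile of the array at 0; own scale per gene), with the mean and SD of each group beside the points and open circles where the gene was not well above background. Cyp1b1 at 72 h, Cyp4f18 from 3 h and Cyp7b1 at 72 h lie above sham control, and Cyp1a1 and Cyp24a1 sink to open circles by 12 h.

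In the vitamin D group, Cyp24a1, which inactivates the hormone and is a target of the vitamin D receptor, fell to background (probe at mm9 chr2:170308865-170308924). Its levels were -2.04, -0.13 and -4.31 in sham control, -7.20, -3.86 and -7.00 at 3 h, -7.45, -7.28 and -7.15 at 12 h, then -7.52, -7.30 and -7.11 at 72 h. The sham arrays were widely spread, and 3 h replicate 2 lay above sham replicate 3, so these groups overlapped. The 3 h difference was -3.86 ± 1.03 (adjusted p = 0.0264), with the gene well above background on 1 array at 3 h. That call was lost without 3 h replicate 1 or 3 or sham control replicate 1 or 2 (adjusted p from 0.0794 to 0.0862), within the first slide alone (adjusted p = 0.0754), and with normexp correction (-0.96). Without 3 h replicate 2, the high array, it was kept. With the gene not well above background on any later array, it was at least 7.03-fold lower at 12 h (adjusted p = 0.00578) and at least 7.88-fold lower at 72 h (adjusted p = 0.00662). These bounds rest on the spread sham arrays, and were 3.48-fold and 3.90-fold without sham control replicate 2 and 14.8-fold and 16.6-fold without replicate 3. With normexp correction the differences were -1.22 and -1.35, both called. Vdr, the receptor, fell by 1.60 at 12 h (adjusted p = 0.00033) and by 1.18 at 72 h (adjusted p = 0.0023), and its 3 h difference of -0.95 was just within a fold change of 2. Cyp2r1, which makes the circulating form of the vitamin, differed from sham control by 0.55 ± 0.19 at 3 h, 0.43 ± 0.19 at 12 h and -0.30 ± 0.19 at 72 h and was not called. Cyp27b1, which makes the active hormone, was not well above background on any array.

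Of the enzymes that break down retinoic acid, Cyp26b1 fell by 3 h and was still low at 72 h (probe at mm9 chr6:84521952-84522011). Its levels were 1.72, 1.45 and -0.04 in sham control, -1.57, -0.86 and -1.25 at 3 h, -0.81, -0.89 and -1.02 at 12 h, then -1.49, -1.58 and -0.39 at 72 h. All 9 arrays after injury lay below the 3 sham arrays, the lowest of which was replicate 3. The differences were -2.27 ± 0.45 at 3 h (adjusted p = 0.00674), -1.95 ± 0.45 at 12 h (adjusted p = 0.0121) and -2.19 ± 0.45 at 72 h (adjusted p = 0.00755). Without sham control replicate 1 or 2 the 12 h difference narrowly missed the threshold (adjusted p = 0.0505 in both). Cyp26a1 was called higher at 72 h (1.76 ± 0.30, adjusted p = 0.00297), yet it was well above background on only 1 of the 12 arrays, and its difference was -0.12 with another background correction and -0.04 with dim values set to a floor. Cyp26c1 was not well above background on any array.

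Around these enzymes, 14 of 15 listed genes of retinoid uptake and synthesis were on the array. At 3 h and at 12 h 3 of them were called higher and 1 lower, and at 72 h 5 higher and 2 lower. Of all genes, 3.26%, 4.1% and 4.55% were called higher and 4.11%, 4.96% and 4.3% lower at the successive times. Aldh1a3, which makes retinoic acid, rose by 2.58, 1.86 and 2.18 at the successive times, and Dhrs9, a retinol dehydrogenase, by 2.83, 3.50 and 1.85. Rdh10, which catalyses the same step, rose by 2.11, 2.26 and 1.12. At 72 h Aldh1a1, the epithelial retinal dehydrogenase, fell by 2.78. Rarb, a receptor gene that retinoic acid induces, fell by 1.67 at 3 h and by 1.39 at 12 h, and its 72 h difference was -0.38 and not called.

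Of the 6 bile acid and cholesterol enzymes, Cyp7b1 and Cyp27a1 were called. Cyp7b1, which hydroxylates and clears oxysterols (probe at mm9 chr3:17972286-17972345), had levels of -0.90, -0.98 and -0.93 in sham control, -0.74, -0.64 and -0.28 at 3 h, 0.02, 0.12 and 0.33 at 12 h, then 4.43, 2.18 and 1.21 at 72 h. No array of a later time lay below one of an earlier time, and the 72 h arrays were far apart. At 72 h it was higher by 3.54 ± 0.62 (adjusted p = 0.00339), and by 2.45 ± 0.62 than at 12 h (adjusted p = 0.0217). The 12 h difference of 1.09 ± 0.62 was not called (adjusted p = 0.262). At 12 h the fibroblast and fat cell marker sums lay below sham control. They were 92.0 to 99.3 against 160.0 to 172, and 6.83 to 15.5 against 23.3 to 49.0. Within 72 h both sums were highest on the same array as Cyp7b1, replicate 1, at 940 and 251. They were lowest on replicate 3, at 420.1 and 8.42. Macrophage and steroid-making cell sums had this order too, and epithelial and smooth muscle sums the reverse.

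Cyp27a1, which hydroxylates the side chain of cholesterol, dipped at 12 h. Its levels were -2.89, -2.87 and -3.60 in sham control, -3.27, -2.81 and -2.38 at 3 h, -3.95, -4.04 and -5.20 at 12 h, then -3.08, -2.93 and -3.28 at 72 h. The 12 h arrays lay below all others, replicate 3 the furthest. The 12 h difference was -1.28 ± 0.35 (adjusted p = 0.0277), and 72 h lay 1.30 ± 0.35 above 12 h (adjusted p = 0.0299). The 12 h difference was no longer called without 12 h replicate 3 (-0.87, adjusted p = 0.0645), which is also its value with the slide as a block, or without sham control replicate 1 or 2 (adjusted p = 0.0959 and 0.0948). With normexp correction it was -0.29, and that from 12 h to 72 h 0.17, neither called. Cyp39a1, an oxysterol hydroxylase, differed by -0.38, -0.78 and -0.91 and Cyp46a1, the cholesterol hydroxylase of neurons, by 0.09, -0.27 and -0.47, all within a fold change of 2.

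Of the 6 steroid hormone genes, only the name Cyp11a1 was called, 1.39 ± 0.30 higher at 3 h (adjusted p = 0.00958), and its probes disagreed. The brightest probe (mm9, chr9:57854517-57854576) was designed on a cDNA clone and lay outside the span of the RefSeq probe (mm9, chr9:57874074-57874544), which was well above background on 1 of 12 arrays and differed by 0.38 at 3 h. With normexp correction the brightest probe differed by 0.48 and was not called. Cyp17a1 differed from sham control by -0.22, -0.41 and -0.47 and Cyp21a1 by -0.21, 0.18 and 0.98, none of them called. The Cyp21a1 probe was an outlier spot on 12 h replicate 1, which was left out of its fit. Cyp20a1, whose substrate is not known, differed by 0.24, 0.97 and 0.59, within a fold change of 2.

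The Cyp2 class held 46 members, of which 11 were called lower and 1 higher at 12 h and 8 lower and 0 higher at 72 h, beside 4.96% and 4.3% of all genes called lower at these times. The Cyp2c genes oxidize fatty acids, retinoids and drugs and lie on chromosome 19. Of 15 on the array, 12 were well above background on all arrays. At 3 h 0 of the 15 were called, at 12 h 7 were lower, and at 72 h 4 were lower. Between 3 h and 12 h 7 were called lower, against 1.56% of all genes called lower in that comparison.

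Cyp2c55, an enzyme of the colon and cecum that oxidizes arachidonic and linoleic acid, had levels of 7.61, 7.52 and 6.84 in sham control, 7.23, 7.67 and 7.69 at 3 h, 5.45, 5.55 and 5.45 at 12 h, then 5.50, 6.13 and 5.68 at 72 h. Sham control and 3 h overlapped, and all 12 h and 72 h arrays lay below both. The difference was -1.84 ± 0.23 at 12 h (adjusted p = 0.00044) and -1.55 ± 0.23 at 72 h (adjusted p = 0.00149).

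Cyp2c65 and Cyp2c66, whose start regions are the first pair printed, moved together. They differed from sham control by 0.44 and 0.46 at 3 h, by -0.59 and -0.59 at 12 h, and by -1.17 ± 0.19 and -1.11 ± 0.23 at 72 h, when both were called lower (adjusted p = 0.0025 and 0.00856). Without 72 h replicate 1 these values were -0.99 and -0.92, within a fold change of 2. From 3 h to 12 h they fell by 1.03 and 1.05 (adjusted p = 0.0114 and 0.0235).

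A second set was low at 12 h and less so at 72 h. Cyp2c69 had levels of 0.40, -0.06 and -0.85 in sham control, -0.47, -1.08 and -1.10 at 3 h, -2.48, -2.31 and -2.90 at 12 h, then -1.51, -0.37 and -1.22 at 72 h. The 12 h arrays lay below all others, while the other groups overlapped. The 12 h difference was -2.40 ± 0.37 in Cyp2c69 (adjusted p = 0.00142), -2.21 ± 0.33 in Cyp2c68, -2.01 ± 0.31 in Cyp2c40 and -1.86 ± 0.34 in Cyp2c67, all called. From 12 h to 72 h Cyp2c68 rose by 1.49 ± 0.33 (adjusted p = 0.0127) and Cyp2c69 by 1.53 ± 0.37 (adjusted p = 0.0178). At 72 h Cyp2c40 was still called lower (-1.04 ± 0.31, adjusted p = 0.0387), although 72 h replicate 2 lay just above sham control replicate 3, and the call was lost without any one of sham control replicates 1 and 2, 3 h replicates 2 and 3, 12 h replicate 1 and 72 h replicates 1 and 3 (adjusted p from 0.0504 to 0.127).

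The probes of Cyp2c67 and Cyp2c68 matched at all but 4 of 59 aligned bases, and their values may come in part from the same transcript, which was not tested. A stretch of 30 bases from each shows 2 of these differences, in capitals.
Cyp2c67 probe: acAcagtcccagAaattccatctatattcc
Cyp2c68 probe: acCcagtcccagGaattccatctatattcc

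The only other pair of members with probes alike at 80% or more was Cyp3a25 and Cyp3a57, neither of them called. Probes were compared only with each other, at shifts of up to 20 bases, and not with transcripts. Whether other probes also read the transcript of a related member was thus not tested. Cyp2c29, which oxidizes arachidonic acid, had a 12 h difference of -1.17 ± 0.22 (adjusted p = 0.00399), and of -0.97 and not called with normexp correction. That of Cyp2c44 was -1.07 ± 0.32 (adjusted p = 0.039), a call lost with the slide as a block or without 12 h replicate 3 (-0.73, adjusted p = 0.106) and without any one of the sham control arrays, 3 h replicate 2, 12 h replicate 1 and 72 h replicates 2 and 3 (adjusted p from 0.0503 to 0.118). With normexp correction that of Cyp2c44 was -0.34, and the 72 h difference of Cyp2c40 was -0.80, neither called. Cyp2c44 is now named Cyp2c23. A second probe of it, not well above background, was called lower at 72 h but not at 12 h. Cyp2c38 moved later, with a fall of 1.11 from 12 h to 72 h (adjusted p = 0.00542).

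**Figure D3:**
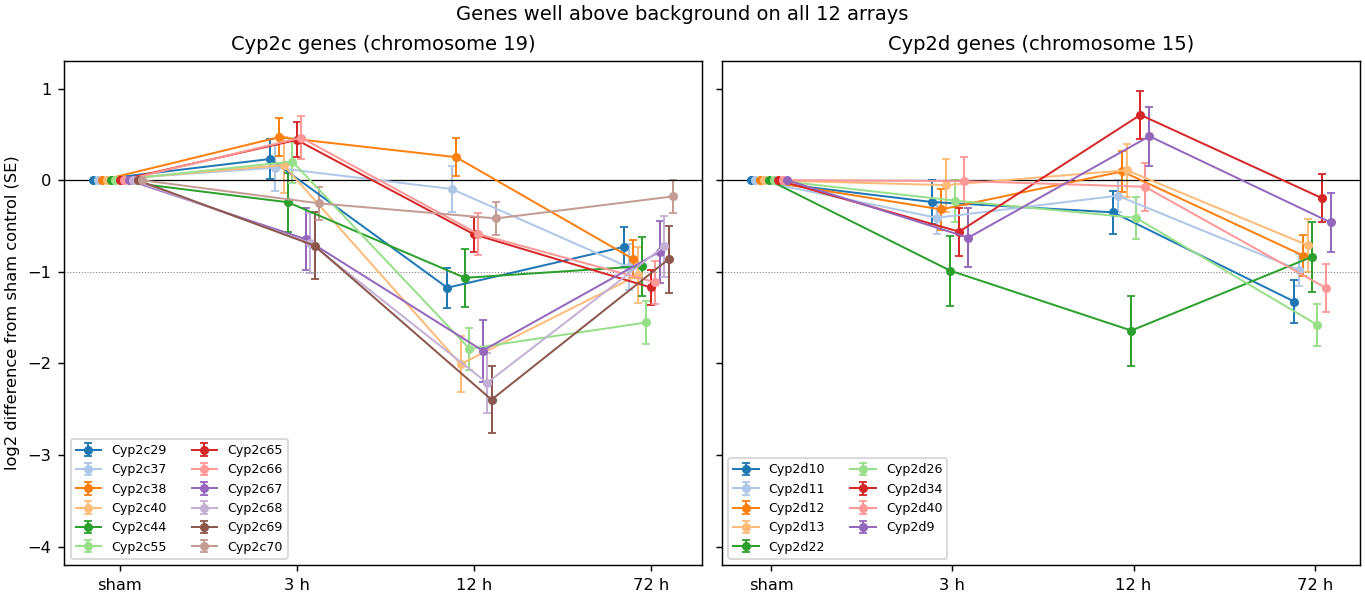
Log2 difference from sham control (y axis, with SE) in the 12 Cyp2c genes and 9 Cyp2d genes that were well above background on all 12 arrays, at the 4 groups along the x axis. Most Cyp2c lines drop between 3 h and 12 h, with Cyp2c69 lowest at -2.40, while most Cyp2d lines drop between 12 h and 72 h, with Cyp2d26 lowest at 72 h at -1.58.

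The Cyp2d genes on chromosome 15, drug and amine oxidases, were well above background on all arrays for 9 of 9. Only 1 was called lower at 12 h, Cyp2d22 (-1.64 ± 0.38, adjusted p = 0.0127, and 0.0544 without sham control replicate 1), and 3 others at 72 h. Of all genes, 4.96% and 4.3% were called lower at these times. Cyp2d26 had levels of 4.54, 4.39 and 3.96 in sham control, 3.94, 3.88 and 4.41 at 3 h, 3.88, 3.86 and 3.92 at 12 h, then 2.23, 2.96 and 2.97 at 72 h. The 72 h arrays lay below all others. The 72 h difference was -1.58 ± 0.23 (adjusted p = 0.00136), and that from 12 h to 72 h was -1.17 ± 0.23 (adjusted p = 0.00713). The 72 h difference was -1.33 ± 0.24 in Cyp2d10 and -1.18 ± 0.26 in Cyp2d40, both called. With normexp correction the call of Cyp2d40 (-0.43) and the 12 h call of Cyp2d22 (-0.45) were lost, and the mean of all probes gave -0.74 in Cyp2d40, not called. A second Cyp2d26 probe gave -1.0 at 72 h and was not called. Of the pair of Cyp2d13 probes, only the dimmer was called lower at 72 h (-1.46). Cyp2d34 was 1.28 ± 0.26 higher at 12 h than at 3 h (adjusted p = 0.0171), with no call against sham control.

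Among the single Cyp2 genes, Cyp2s1, an epithelial enzyme of retinoid and hydrocarbon oxidation, had levels of 4.56, 4.85 and 4.47 in sham control, 3.98, 3.88 and 3.33 at 3 h, 2.72, 2.91 and 2.77 at 12 h, then 3.44, 4.08 and 3.60 at 72 h. The groups before and after injury did not overlap, and 12 h was lowest. It fell by 1.82 ± 0.21 at 12 h (adjusted p = 0.000283), and its differences of -0.89 at 3 h and -0.91 at 72 h were within a fold change of 2. With the mean of all its probes the 12 h difference was -0.90 and not called.

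Cyp2j9, which oxidizes arachidonic acid, was the only Cyp2 gene called at 3 h. Its levels were -0.47, -0.36 and -0.93 in sham control, -1.74, -1.78 and -1.97 at 3 h, -2.20, -2.42 and -2.15 at 12 h, then -1.01, -0.85 and -1.20 at 72 h. It was low at 3 h and 12 h, and at 72 h the arrays overlapped those of sham control. The differences were -1.25 ± 0.17 (adjusted p = 0.000875), -1.67 ± 0.17 (adjusted p = 0.000127) and -0.44 ± 0.17 (adjusted p = 0.094), and from 12 h to 72 h it rose by 1.24 ± 0.17 (adjusted p = 0.00114). With normexp correction the differences were -0.69 at 3 h and -0.95 at 12 h, and with the mean of all its probes -0.91 at 3 h, none of them called. The rise was then 0.65 and 0.87, also not called.

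Cyp2f2, the naphthalene oxidase of airway club cells, fell at 12 h, with a difference of -1.94 ± 0.47 (adjusted p = 0.0147), a call lost without sham control replicate 1 or 2 (adjusted p = 0.0603 and 0.0595). Cyp2t4 was the only Cyp2 member called higher against sham control, by 1.21 ± 0.21 at 12 h (adjusted p = 0.00305), and by 0.51 and not called with normexp correction. Cyp2b13 passed the thresholds at 72 h but was not well above background on any array, so no fold is given. Probes of 3 more genes disagreed. A dimmer probe of Cyp2w1 was called lower at 12 h (-1.08) and higher from 12 h to 72 h (1.03), a dimmer probe of Cyp2u1 that was well above background on 1 array was called higher from 3 h to 12 h (1.68), and a dimmer probe of Cyp4f13 was called lower at 3 h (-1.22), while the brightest probe of each gene was not called.

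Of the 7 Cyp3a genes, the main drug oxidases of liver and small intestine, 4 were well above background on no array and Cyp3a13 on all 12. Its levels were 2.52, 2.36 and 1.91 in sham control, 2.70, 2.88 and 3.30 at 3 h, 2.49, 2.45 and 2.04 at 12 h, then 0.36, 0.96 and 0.68 at 72 h. Sham control and 12 h overlapped, 3 h lay above and 72 h below both. The 72 h difference was -1.60 ± 0.23 (adjusted p = 0.00128), and from 12 h to 72 h it fell by 1.66 (adjusted p = 0.00132). Nr1i2, which encodes the drug-sensing receptor PXR, differed by -0.93 ± 0.16 at 72 h, within a fold change of 2.

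The Cyp4 class of 16 members oxidizes the far end of fatty acids and eicosanoids. Cyp4f18, a leukotriene B4 hydroxylase of neutrophils, was the only member called higher at all 3 times (probe at mm9 chr8:74512382-74512441). Its levels were 0.52, 0.65 and 0.85 in sham control, 1.84, 3.27 and 2.33 at 3 h, 4.57, 4.0 and 4.03 at 12 h, then 3.33, 2.92 and 3.92 at 72 h. All 9 arrays after injury lay above sham control, and 12 h was highest. The differences were 1.81 ± 0.36 (adjusted p = 0.00654), 3.53 ± 0.36 (adjusted p = 0.000142) and 2.72 ± 0.36 (adjusted p = 0.000785). The summed level of 6 neutrophil markers ran from 2.57 to 8.34 in sham control, from 301 to 533 at 3 h, from 749 to 795 at 12 h and from 289 to 578 at 72 h, and 6, 6 and 5 of the 6 were called higher.

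Cyp4f14, which oxidizes leukotriene B4 and vitamin E in liver and gut epithelium, moved the opposite way. Its levels were 4.23, 4.46 and 4.44 in sham control, 4.75, 4.41 and 4.32 at 3 h, 3.40, 3.38 and 2.71 at 12 h, then 1.58, 2.22 and 2.69 at 72 h. Sham control and 3 h overlapped, 12 h lay below them and 72 h lowest. The difference was -1.21 ± 0.28 at 12 h (adjusted p = 0.0115) and -2.21 ± 0.28 at 72 h (adjusted p = 0.000618). With the slide as a block the 12 h difference was -0.99 and fell short of a fold change of 2.

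Cyp4a10, a target of PPARα that hydroxylates lauric and arachidonic acid, was at least 2.13-fold lower at 72 h, where it was well above background on no array (adjusted p = 0.0161, and 0.0534 or 0.0532 without sham control replicate 1 or 2), and its other pair of probes was so on none at all. With the slide as a block this difference was -0.06 (adjusted p = 0.943), with normexp correction -0.43 and with the mean of all probes -0.62, none of them called. Ppara itself fell by 1.43, 1.67 and 1.11 at the successive times. Cyp4v3, a fatty acid hydroxylase known from the retina, was called only between 12 h and 72 h (1.36 ± 0.20, adjusted p = 0.00185), and at 72 h it lay 0.87 ± 0.20 above sham control.

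Between successive times, 2 members were called higher and 10 lower from 3 h to 12 h, when 1.89% of all genes were called higher and 1.56% lower. From 12 h to 72 h 7 were called higher and 5 lower, when 4.33% of all genes were called higher and 3.19% lower. The 7 were Cyp1b1, Cyp27a1, Cyp2c68, Cyp2c69, Cyp2j9, Cyp4v3 and Cyp7b1.

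The slide bears most on the 72 h values. With the slide as a block, all 6 calls at 3 h and 15 of the 18 at 12 h were made, with 2 more at 12 h (Cyp20a1 and Cyp26a1), but only 3 of the 18 at 72 h, Cyp1a1, Cyp1b1 and Cyp26a1, with Cyp4f37 added. Cyp4f37 was well above background only on 12 h replicate 3, and Cyp26a1 only on 72 h replicate 1, so no fold is given for them here. Among the calls lost at 72 h, the difference of Cyp4f18 was 2.97 (adjusted p = 0.0501), that of Cyp7b1 3.28 (adjusted p = 0.172), that of Cyp24a1 -5.37 (adjusted p = 0.183), that of Cyp26b1 -2.03 (adjusted p = 0.242), that of Cyp2c55 -1.51 (adjusted p = 0.103), that of Cyp2d26 -1.62 (adjusted p = 0.0841), that of Cyp3a13 -1.17 (adjusted p = 0.158) and that of Cyp4f14 -1.53 (adjusted p = 0.108). That of Cyp2c65 was -0.78 and that of Cyp2c66 -0.65, while Cyp2c40 stood at -1.61. The errors were wider because, in that fit, 12 h replicate 3 alone joins the slides. From 3 h to 12 h 5 of 12 calls were made with the block, and from 12 h to 72 h 5 of 12. Within the first slide alone the 12 h comparison gave 4 higher and 14 lower.

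**Figure D4:**
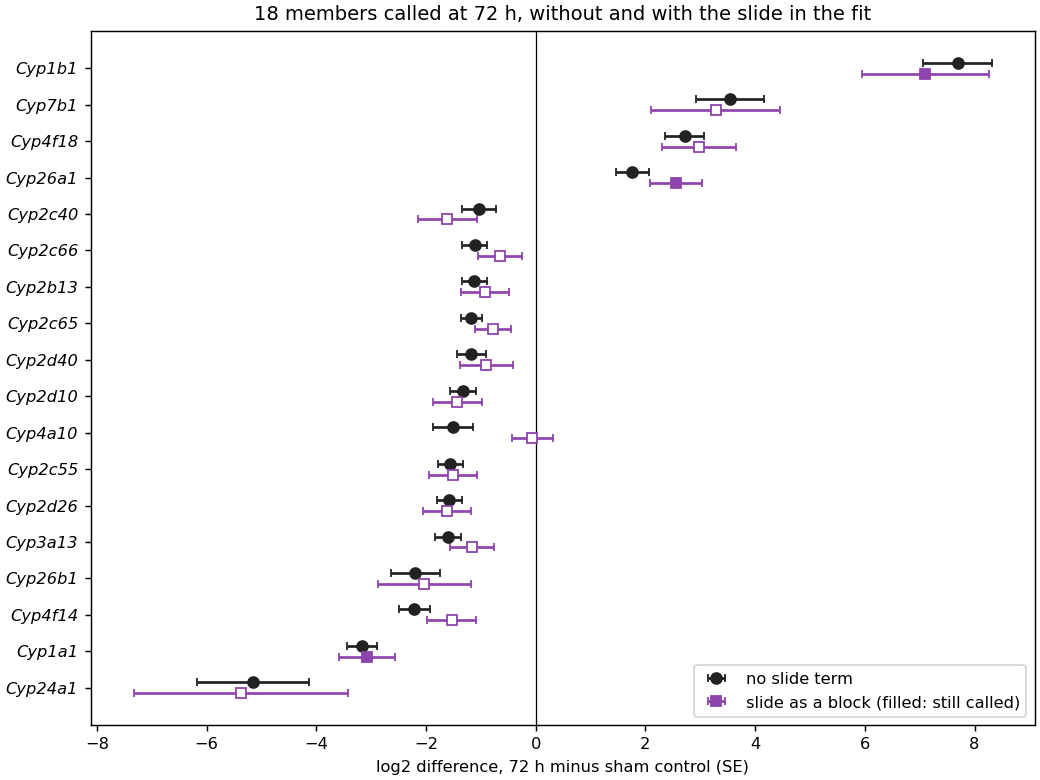
Log2 difference at 72 h from sham control (x axis, with SE) of the 18 members called there, fitted without the slide (black) and with the slide as a block (purple, filled where still called). All 18 differences keep their sign, that of Cyp4a10 at only -0.06, the purple errors are wider, and filled squares mark Cyp1b1, Cyp26a1 and Cyp1a1.

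Markers of several cell types moved with the groups. The summed level of the 16 epithelial markers was 2559 to 3066 at 12 h, overlapping sham control, and 1266 to 1738 at 72 h, below it, with 1 marker called higher at 3 h (Krt18), 2 lower at 12 h (Slc26a3 and Aqp8) and 5 lower at 72 h. The 72 h falls were largest in Car4 (-3.67) and Aqp8 (-2.95), while Epcam and Vil1 were not called. The smooth muscle sum was 347 to 387 in sham control, 182 to 222 at 3 h, 113 to 180 at 12 h and 118 to 164 at 72 h. The macrophage sum was 30.3 to 32.3 in sham control and 93.7 to 106 at 72 h. The part of these shifts in the P450 differences was not tested. Hepatocyte marker sums were 7.02 to 13.3 in sham control, 10.1 to 12.5 at 3 h, 8.76 to 16.2 at 12 h and 4.02 to 6.00 at 72 h, with Fgb on 0 of 12 arrays well above background. Such a sum follows its brightest genes. At 72 h, 1 of the 7 hepatocyte markers was called higher and 1 lower, with a median log2 difference of 0.57. The sum of steroid-making cell markers was at most 2.45 on any array.

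**Figure D5:**
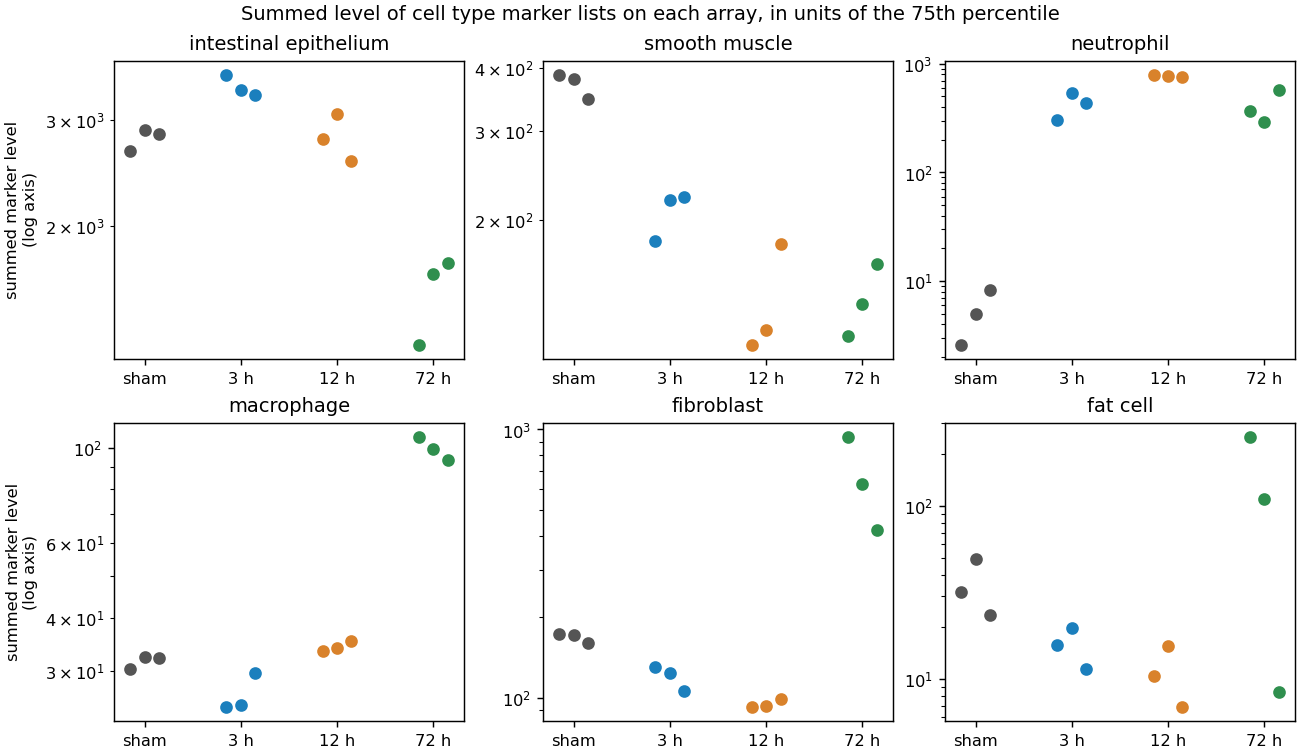
Summed level of 6 marker lists on each array (y axis, log scale, in units of the array's 75th percentile), by group. Epithelial sums are lowest at 72 h, neutrophil sums rise from under 8.34 to 301 or more by 3 h, and fibroblast and macrophage sums are highest at 72 h.

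Genes that serve P450 enzymes were read as well. Of 19 redox partners and heme enzymes, 2 were called higher at 3 h. At 12 h the list held 1 higher and 1 lower gene, and at 72 h it held 1 and 2. Of all genes, 3.26% were called higher and 4.11% lower at 3 h. The shares were 4.1% and 4.96% at 12 h, and 4.55% and 4.3% at 72 h. Por, the reductase that feeds electrons to microsomal P450s, differed by 0.26, -0.01 and 0.08 and was not called. Fdxr, the mitochondrial ferredoxin reductase, fell by 1.28 at 12 h and by 1.01 at 72 h. Alas1, which starts heme synthesis, rose by 1.0 at 3 h (adjusted p = 0.0014), and Hmox1, which breaks heme down, rose by 2.91, 3.03 and 3.76.

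Of 27 receptors and transcription factors of P450 genes, 1 was called higher and 7 lower at each time. The shares of all genes called lower were 4.11%, 4.96% and 4.3% at the successive times, and of those called higher 3.26%, 4.1% and 4.55%. The one that rose was Cebpb, an acute phase factor, by 2.51, 3.25 and 2.86. Nr0b2, the bile acid repressor SHP, was well above background on the 3 sham arrays only and at least 1.38-fold lower at 3 h, 1.64-fold at 12 h and 1.83-fold at 72 h. The circadian factor Hlf fell by 1.81, 2.36 and 1.53, and Dbp fell by 1.66 at 3 h and by 1.90 at 12 h. Nr1h4, the bile acid receptor FXR, fell by 1.54 and Ppard by 1.08 at 72 h only.

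Of 46 other oxidation and conjugation enzymes, 43 were on the array. None of them was called at 3 h. At 12 h 1 was higher and 13 were lower, and at 72 h 9 were lower with 0 higher. Of all genes, 4.96% and 4.3% were called lower at these times, and 4.1% and 4.55% higher. At 12 h the sulfotransferase Sult1a1 fell by 2.36, the flavin monooxygenase Fmo5 by 1.83 and the glutathione transferase Gstt1 by 1.51, while Gsta2 rose by 1.90. At 72 h the glucuronosyltransferases Ugt2b35, Ugt2b5 and Ugt2b36 fell by 2.64, 2.59 and 2.48. The list had a median of 0.05, -0.57 and -0.66 at the successive times.

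Outside the symbol rule, 3 further P450 genes were read. Ptgis, the prostacyclin synthase, fell by 1.11 at 3 h and rose by 1.35 at 72 h, and Tbxas1, the thromboxane synthase, fell by 1.08 at 3 h and rose by 1.83 at 72 h. Cyp51, of cholesterol synthesis, differed by 0.57, 0.54 and 0.02 and was not called.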

How the data were processed

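Total RNA of 12 cecum samples was labelled with Cy3 and hybridized to Agilent mouse arrays, 1 sample per array, with probe coordinates on mm9. The deposited intensity values are the scanner software's processed signals, which the authors' software had background-subtracted and detrended but not scaled between arrays. The deposited log2 table, which the authors scaled to the 75th percentile of each array in GeneSpring, was centred on each probe's median and served as an alternative. No columns of fold changes or p-values were used.

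Here, outlier spots were left out (53 to 152 per array), spots of a probe averaged, log2 taken, and each array's 75th percentile over 56605 probes subtracted. That percentile was an intensity of 180 to 261, and 60.2% to 65.2% of probes were well above background, and 3 arrays per group limit the precision. A model of 4 group means was fitted in R 4.3.3 by limma 3.58.1, with Benjamini-Hochberg adjustment over all probes, checked on simulated data. SE is the moderated standard error of the fit. Where a gene was well above background on no array of 1 group, the fold is a lower bound, taken against the lowest signal among probes well above background on each array of that group, or the probe's own if higher. Summed marker levels are sums of linear values in units of the 75th percentile. Figures were drawn with matplotlib 3.10.9.

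The members and lists were chosen with earlier results of these data known. Named were members called in any of 5 comparisons, all Cyp1, vitamin D, retinoic acid, bile acid, cholesterol and steroid members, members whose probes disagreed, and at most 5 called genes per list and time. Ahr, Arnt, Nr1i2, Por, Cyp20a1, Cyp3a25, Cyp3a57, Cyp4f37 and some uncalled markers were named after their values were seen. Of the P450 genes, 1 is not reported here. Fold change, normalization, background, dim probes, slide, replicate number and each left-out array were varied. Replicate numbers did not pair the arrays. Whether replicates were separate animals rests on the study's text.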

Additional observations from a re-analysis of the deposited data

Results flagged for a closer look

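The differences from the same sham arrays changed between 3 h and 12 h in 12 members and between 12 h and 72 h in 12 members, by limma's contrast of the times themselves. From 3 h to 12 h the log2 difference was -2.24 in Cyp1a1, -1.57 in Cyp27a1, -1.41 in Cyp2c29, -2.17 in Cyp2c40, -2.04 in Cyp2c55, -1.03 in Cyp2c65, -1.05 in Cyp2c66, -1.53 in Cyp2c68, -1.68 in Cyp2c69 and -1.33 in Cyp4f14. It was 1.28 in Cyp2d34 and 1.72 in Cyp4f18. Cyp1a1 was well above background on no array at 12 h, and its bound was at least 1.15-fold, or none without 3 h replicate 1. The calls of Cyp1a1, Cyp2c29, Cyp2c40 and Cyp2c55 were made whichever single array was left out. Those of Cyp27a1, Cyp2c65, Cyp2c66, Cyp2c68, Cyp2c69, Cyp2d34, Cyp4f14 and Cyp4f18 were lost without 1 or more of 3 h replicates 1 to 3 or 12 h replicates 1 and 3, at adjusted p up to 0.079 or differences within a fold change of 2.

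From 12 h to 72 h the log2 difference was 6.08 in Cyp1b1, 1.30 in Cyp27a1, 1.49 in Cyp2c68, 1.53 in Cyp2c69, 1.24 in Cyp2j9, 1.36 in Cyp4v3 and 2.45 in Cyp7b1. It was -1.35 in Cyp2b13, -1.11 in Cyp2c38, -1.17 in Cyp2d26, -1.11 in Cyp2d40 and -1.66 in Cyp3a13. Cyp2b13 was well above background on 0 of 12 arrays. With the slide as a block, Cyp1b1, Cyp27a1, Cyp2j9, Cyp3a13 and Cyp4v3 were still called. Leaving out 12 h replicate 1 or 2 ended the call of Cyp7b1 (adjusted p = 0.0655 and 0.0632). Leaving out 12 h replicate 3 or 72 h replicate 1 or 2 ended that of Cyp27a1 (adjusted p = 0.0632, 0.0804 and 0.0919), and leaving out 12 h replicate 3 or 72 h replicate 2 ended that of Cyp2c69 (adjusted p = 0.053 and 0.0619). Leaving out 12 h replicate 2 or 72 h replicate 2 ended that of Cyp2d40 (adjusted p = 0.0679 and 0.0667), leaving out 72 h replicate 1 moved Cyp2d26 to -0.92, and leaving out 12 h replicate 2 or 72 h replicate 3 moved Cyp2c38 to -0.98 and -1.0. With normexp correction the calls of Cyp1a1, Cyp27a1, Cyp2c65, Cyp2c68, Cyp2c69 and Cyp2d34 from 3 h to 12 h were lost, as were those of Cyp27a1, Cyp2b13, Cyp2c38, Cyp2c68, Cyp2c69, Cyp2d40 and Cyp2j9 from 12 h to 72 h.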

How the results depend on the processing

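The 66 called differences kept their sign under all alternatives but for Cyp26a1 at 72 h, which was -0.115 with normexp background correction and -0.0373 with a floor on dim probes. With the slide as a block, 2 members were higher and 2 lower at 72 h, 4 higher at 12 h, 1 higher and 4 lower from 3 h to 12 h, and 4 higher and 3 lower from 12 h to 72 h. Within 1 slide, 4 were higher at 12 h, 0 higher and 5 lower from 3 h to 12 h, and 0 either way from 12 h to 72 h, where 1 array stood against 3. With normexp, which kept 36 of the 66 calls, 1 was higher and 1 lower at 3 h, 1 higher and 10 lower at 12 h, 1 higher and 5 lower from 3 h to 12 h, and 3 higher and 2 lower from 12 h to 72 h. Its offset of 50 shrinks the folds of dim genes, so a call lost with it does not show that a level was unchanged. From 3 h to 12 h 0 were higher with only those groups in the fit. The same held for a t-test paired on replicate number, at unadjusted p below 0.05. The study's methods name a paired t-test for 2 groups but do not name the test behind its array calls. After Benjamini-Hochberg over all probes the paired test called 0 members in any comparison and 0 list genes against sham control. With only 3 pairs it has little power there, and the replicate numbers did not pair the arrays. With the mean of all probes 1 was higher at 3 h. With no fold threshold 8 were higher and 22 lower at 72 h, 4 higher from 3 h to 12 h, 13 lower from 12 h to 72 h, and list calls numbered 75 in place of 44. Relative to the median of all probes, 3 were lower from 12 h to 72 h. The cause was not tested in any of these.

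On leaving out 1 array at a time, higher and lower members numbered 2 to 3 and 3 to 5 at 3 h, 2 to 4 and 11 to 17 at 12 h, 4 to 6 and 12 to 20 at 72 h, 0 to 2 and 4 to 12 from 3 h to 12 h, and 6 to 9 and 4 to 9 from 12 h to 72 h, and list calls 38 to 48. At 12 h 4 were higher without sham control replicate 2 or 12 h replicate 3. From 3 h to 12 h 0 were higher without 3 h replicate 1 or 12 h replicate 1 and 1 without 3 h replicate 3 or 12 h replicate 3, and 6, 5 and 4 were lower without 3 h replicate 1, 3 h replicate 2 and 12 h replicate 3. From 12 h to 72 h 9 were lower without 12 h replicate 3. With a replicate block, the higher and lower members against sham control numbered 2 and 4, then 2 and 16, then 4 and 13 at the successive times, 2 and 11 from 3 h to 12 h, and 8 and 5 from 12 h to 72 h. Same-numbered arrays correlated at -0.162 to 0.0866 in their deviations from group means, so the number was only a name. Signal over background limits the 26 members that were dim on every array, whose differences are not reliable. Among them, Cyp2b13 is still in the counts of calls at 72 h and from 12 h to 72 h. With a floor on dim probes its differences there were -0.115 and -0.166, not called.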
